A study of Homo sapiens with 3 samples.

Results

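Complexes I to IV of the respiratory chain were followed in 3 human cell lines through 60 nuclear genes, of 14410 genes compared on the same arrays. A gene was a member when its symbol began with NDUFA, NDUFAF, NDUFB, NDUFC, NDUFS or NDUFV and a number, was SDHA, SDHB, SDHC or SDHD, or began with UQCR or with COX4 to COX8, and when a transcript cluster, the set of exon probes read as 1 gene, carried that symbol alone. Where a gene had more than 1 such cluster, the brightest on average was used. Gene symbols alone decided membership, and intensity only chose between clusters of the same gene. The rule was set with earlier results of these data known.

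HT-29, a colon adenocarcinoma line grown in McCoy's 5A medium with 10% fetal bovine serum, received interferon gamma (IFN-γ) at 200 U/ml for 24 h. MDA-MB-436, a breast adenocarcinoma line, was grown in L-15 medium with 10% fetal bovine serum and without added CO2. MCF10A, a mammary epithelial line that is not tumorigenic, was grown in DMEM/F12 with horse serum (5%), epidermal growth factor at 20 ng/ml, hydrocortisone at 500 ng/ml, cholera toxin at 100 ng/ml and insulin at 10 µg/ml. With 1 array for each line, no test, error or p-value could be given, and the small number of arrays sets the precision. Untreated HT-29 was not analysed here, so line, medium and cytokine cannot be told apart in any difference of HT-29, and line and medium cannot be told apart between the mammary lines. Less transcript per cell and fewer cells with it cannot be told apart either.

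The inner mitochondrial membrane carries the respiratory chain. Complex I takes electrons from NADH and complex II takes them from succinate, as part of the citric acid cycle; both hand them to ubiquinone. Complex III passes them on to cytochrome c, and complex IV, cytochrome c oxidase, gives them to oxygen. Complexes I, III and IV pump protons, and complex V, the ATP synthase, uses the resulting gradient. All but complex II also hold subunits encoded in mitochondrial DNA, which are not among the members. Many subunits of complex I are accessory, without a part in electron transfer itself, and separate assembly factors build the complexes without staying in them.

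The members were 5 core and 23 accessory subunits of complex I, 7 complex I assembly factors, 3 subunits of complex II, 5 of complex III, 9 of complex IV, 7 genes that encode tissue-restricted relatives of complex IV subunits or the related COX7A2L, and the pseudogene UQCRBP1. Of 61 nuclear subunits listed for the 4 complexes, 45 were members. A further 3, NDUFAB1, CYC1 and COXFA4, were measured under symbols outside the rule. The other 13, among them NDUFS1, SDHB, UQCRB and COX6A1, had no cluster of their own and were not analysed here. Olfactory receptor genes set the background: the 95th percentile over 228 of them was 29.9 on the deposited linear scale, and their highest value was 100.8. All 3 arrays were above background for 51 members, some arrays for 2 and no array for 7.

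Promoters are shown because most members were lower in both tumor lines relative to MCF10A, and because nuclear respiratory chain genes are known for sites of NRF1, of ETS factors such as GABP, and of YY1 near their start. The 250 bases before the start were read from RefSeq (GRCh38.p14), which had an entry for 51 of the 60 members. Each was searched on both strands for GCGC, any base and then TGCGC as the NRF1 motif, CCGGAAG as the ETS motif and AAGATGGCG as the YY1 motif; none of them can be a part of another. These letters are textbook consensus forms and come from no deposited file. The NRF1 motif was in 17.6% of the members' promoters and in 8.12% of the 11523 promoters of all genes measured. The ETS motif was in 19.6% and 12.1%, and the YY1 motif in 0 of 51 members and 0.824% of all. These member shares stand for 9 promoters with the NRF1 motif and 10 with the ETS motif. The set of all genes includes those under background, while most members were above it, and shares over genes above background were not taken. The 50 bases after the start, also available, were not searched. The YY1 counts therefore say nothing of motifs past the start. The 4 promoters below were picked to set members of unlike behaviour side by side: UQCR11 (chr19:1605463-1605712, minus strand), lower in both tumor lines, SDHD (chr11:112086623-112086872, plus strand) and SDHA (chr5:218070-218319, plus strand), of which SDHD was lower and SDHA higher in MDA-MB-436 relative to MCF10A, and NDUFA8 (chr9:122159780-122160029, minus strand), low in IFN-γ-treated HT-29 alone. They run 5′ to 3′ on the strand of the gene, with matches to the NRF1 and ETS motifs in capitals.
UQCR11: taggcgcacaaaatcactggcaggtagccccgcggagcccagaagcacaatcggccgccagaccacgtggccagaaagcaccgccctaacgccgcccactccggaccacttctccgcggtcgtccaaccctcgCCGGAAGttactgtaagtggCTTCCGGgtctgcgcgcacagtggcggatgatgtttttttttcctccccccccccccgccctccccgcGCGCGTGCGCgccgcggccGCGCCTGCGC
SDHD: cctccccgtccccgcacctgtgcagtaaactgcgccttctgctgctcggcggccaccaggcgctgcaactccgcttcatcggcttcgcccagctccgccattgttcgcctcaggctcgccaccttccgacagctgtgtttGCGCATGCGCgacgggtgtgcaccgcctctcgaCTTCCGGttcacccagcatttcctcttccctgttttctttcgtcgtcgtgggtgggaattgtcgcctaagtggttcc
SDHA: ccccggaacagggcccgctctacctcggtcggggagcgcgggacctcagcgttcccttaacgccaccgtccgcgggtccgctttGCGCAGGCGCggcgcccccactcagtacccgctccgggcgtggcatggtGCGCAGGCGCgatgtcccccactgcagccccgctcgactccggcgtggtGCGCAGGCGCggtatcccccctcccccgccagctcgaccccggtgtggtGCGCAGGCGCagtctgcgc
NDUFA8: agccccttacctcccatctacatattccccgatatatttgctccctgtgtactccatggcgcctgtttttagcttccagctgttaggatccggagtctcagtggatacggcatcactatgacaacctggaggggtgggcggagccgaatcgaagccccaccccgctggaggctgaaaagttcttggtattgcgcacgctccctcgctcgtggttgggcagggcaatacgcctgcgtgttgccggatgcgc
UQCR11 held 2 NRF1 and 2 ETS matches, SDHD 1 of each, SDHA 4 NRF1 matches and NDUFA8 none. A match describes letters and is not a site.

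The labels were set against marker genes. The colon markers LGALS4 and KRT20 were at 2372 and 1348 in HT-29 and under background in the other lines, whereas CDX1 and CDX2 were under 100.8 in every line. Of the mesenchymal genes, CDH2 and MMP2 were at 708 and 674 in MDA-MB-436 and at most 33.9 in the others, and SPARC was at 70.5 in MDA-MB-436, within the range of olfactory receptor genes. VIM did not separate the mammary lines, at 21.0 in IFN-γ-treated HT-29, 2037.5 in MDA-MB-436 and 1933 in MCF10A. The basal keratin gene KRT14 was at 3732 in MCF10A and under background elsewhere. The IFN-γ target gene IRF1 was at 3961 in IFN-γ-treated HT-29, 326 in MDA-MB-436 and 94.9 in MCF10A. The leukocyte genes PTPRC and CD3E and the endothelial genes PECAM1, CDH5 and VWF were under background on all arrays, and CD14 was at 38.9, 86.5 and 156 in IFN-γ-treated HT-29, MDA-MB-436 and MCF10A.

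Respiratory chain genes were mostly at their highest in MCF10A, and the differences were small. Of the 53 members above background on any array, 36 had their highest intensity in MCF10A, 15 in MDA-MB-436 and 2 in IFN-γ-treated HT-29. Of all 10709 genes above background on any array, 33.4% were highest in MCF10A, 28.8% in MDA-MB-436 and 37.8% in IFN-γ-treated HT-29. The lowest intensity lay in IFN-γ-treated HT-29 for 33 of the 53 members (62.3%), in MDA-MB-436 for 18 (34.0%) and in MCF10A for 2 (3.77%). Of the 10709 genes, 32.4% were lowest in IFN-γ-treated HT-29, 36.7% in MDA-MB-436 and 30.9% in MCF10A. The members' share in MDA-MB-436 was thus close to that of all genes. No member differed by as much as 4-fold in any comparison. Among all genes, 4-fold or more separated 3.65% on the higher and 2.01% on the lower side for MDA-MB-436 minus MCF10A, 4.34% and 3.50% for IFN-γ-treated HT-29 minus MCF10A, and 4.21% and 4.68% for IFN-γ-treated HT-29 minus MDA-MB-436.

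**Figure D1:**
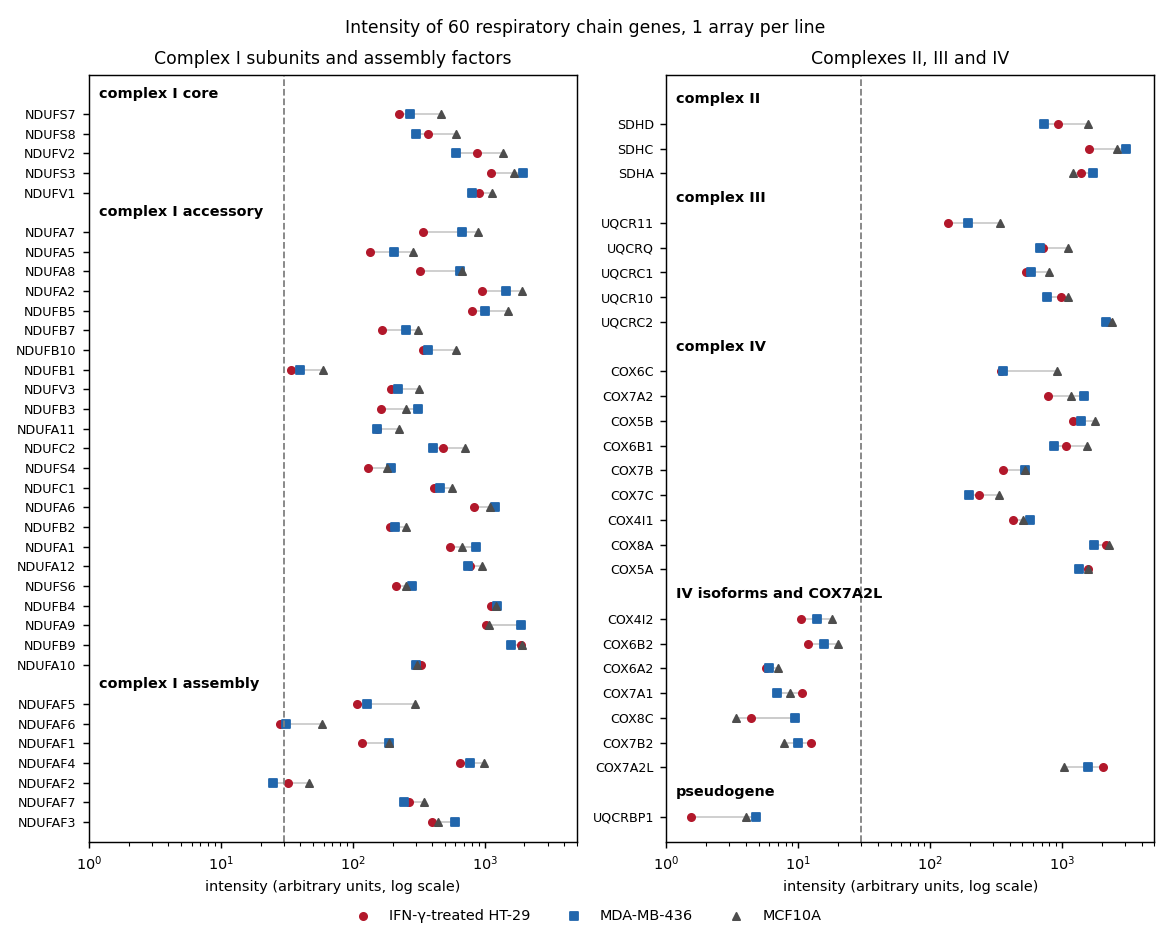
Intensity (log axis, arbitrary units) of each of the 60 members on the array of IFN-γ-treated HT-29 (circles), MDA-MB-436 (squares) and MCF10A (triangles), by complex, with the background of 29.9 dashed. Triangles lie furthest right for 36 of the 53 members that rise above background on any array; for COX6C the circle (341) lies behind the square (353).

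IFN-γ-treated HT-29 was lower than MCF10A for 54 of the 60 members (90%), with a median log2 difference of -0.56. Of all genes, 43.4% were lower, and 50.6% of those above background on all arrays. Over all genes the median was 0.11, and over the 8561 genes above background on all arrays it was -0.01. A member was counted as different when the fold was at least 2 and the higher array lay above background. By that rule 9 of 60 members (15%) were lower in IFN-γ-treated HT-29, against 10.1% of all genes, and 0 were higher, against 10.2%. Over the genes above background on all arrays these shares were 11.6% and 10.8%. The share of lower members was thus close to the background share. At 1.5-fold, 24 members (40%) were lower, against 17.3% of all genes, and 1 was higher, against 16.7%. The 51 members above background on all arrays spread with an SD of 0.44 on the log2 scale, against 0.99 for the genes above background on all arrays.

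MDA-MB-436 was lower than MCF10A for 41 of 60 members, with a median log2 difference of -0.35, against 0.02 over all genes and -0.14 over genes above background on all arrays. The share of lower genes was 68.3% for members and 48.9% for all genes. Above background on all arrays it was 68.6% for members and 58.5% for all genes. In this comparison 5 of 60 members (8.33%) were at least 2-fold lower, against 8.74% of all genes, and 0 were higher, against 8.76%. Over the genes above background on all arrays these shares were 11.4% and 6.63%. After quantile normalization, which forces the same distribution on all arrays, the members' median was -0.12 and that of genes above background -0.06. NDUFA9 was then at least 2-fold higher, and the 4 lower members were COX6C, NDUFAF5, NDUFAF2 and NDUFAF6, so that NDUFV2, NDUFS8 and SDHD were no longer counted and NDUFAF2 and NDUFAF6, both near background, were added. At 1.5-fold, as deposited, 15 members (25%) were lower, against 17.9% of all genes, and 2 were higher, against 14.9%.

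Between IFN-γ-treated HT-29 and MDA-MB-436 the median log2 difference was -0.19, against 0.08 over all genes and 0.11 over genes above background on all arrays. In IFN-γ-treated HT-29, 39 of 60 members (65%) were lower, against 45.2% of all genes. Above background on all arrays these shares were 64.7% and 43.3%. Only NDUFA8 was at least 2-fold lower (1.67% of members), against 11.0% of all genes, and 0 members were higher, against 11.5%. Over the genes above background on all arrays these shares were 9.40% and 13.7%. At 1.5-fold, 13 members were lower, against 17.3% of all genes, and 0 were higher, against 20.0%. Quantile normalization moved the median to -0.33 and raised the count of lower members at 2-fold to 7, and median centring took that count to 0. Which lines lay closest thus depended on the scaling. The comparisons share arrays and are not independent of each other.

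**Figure D2:**
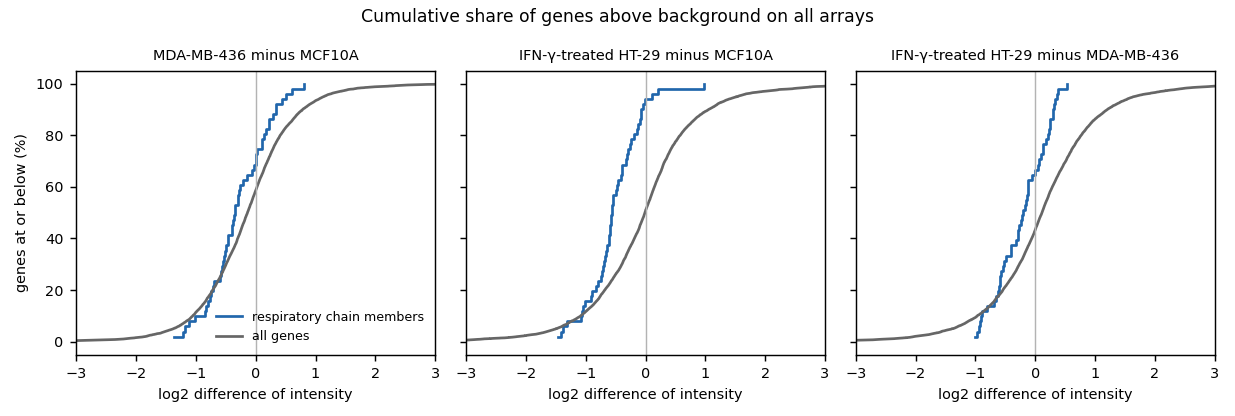
Cumulative share (%) of the 51 members (blue) and of all 8561 genes (grey) above background on all arrays, by log2 difference of intensity, in the 3 comparisons. For IFN-γ-treated HT-29 minus MCF10A, 94.1% of the members and 50.6% of all genes lie below 0.

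The core subunits of complex I carry its flavin and iron-sulfur centres or hold them in place. All 5 measured core genes were lower in IFN-γ-treated HT-29 relative to MCF10A, and 4 of 5 were lower in MDA-MB-436. Of all genes above background on all arrays, 50.6% and 58.5% were lower in these comparisons. NDUFV2, an iron-sulfur subunit of the NADH-oxidising module, was at 877 in IFN-γ-treated HT-29, 610 in MDA-MB-436 and 1384.8 in MCF10A, 2.27-fold lower in MDA-MB-436 relative to MCF10A. NDUFS8, which carries iron-sulfur clusters on the way to ubiquinone, was at 372 in IFN-γ-treated HT-29, 301 in MDA-MB-436 and 609 in MCF10A, and was 2.03-fold lower in MDA-MB-436. After quantile normalization both log2 differences from MCF10A fell short of 2-fold, at -0.91 and -0.82.

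NDUFS7, the iron-sulfur subunit next to the ubiquinone site, had the opposite order of tumor lines, with 224 in IFN-γ-treated HT-29, 273 in MDA-MB-436 and 462 in MCF10A. NDUFS3 was highest in MDA-MB-436, at 1942, with 1109.9 in IFN-γ-treated HT-29 and 1670.5 in MCF10A. NDUFV1, which binds the flavin, was at 903 in IFN-γ-treated HT-29, 801 in MDA-MB-436 and 1136 in MCF10A. As deposited, the core genes thus differed in which tumor line was lower. Their median log2 difference of IFN-γ-treated HT-29 minus MDA-MB-436 was 0.17 as deposited and -0.12 after quantile normalization. NDUFV2 and NDUFS8 then stayed lower in MDA-MB-436, by 0.24 and 0.12.

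Among the 23 accessory subunits of complex I under the rule, 22 were lower in IFN-γ-treated HT-29 relative to MCF10A, with a median log2 difference of -0.55. Relative to MDA-MB-436, 18 were lower in IFN-γ-treated HT-29, with a median of -0.32. Of all genes above background on all arrays, 50.6% and 43.3% were lower in these comparisons. MDA-MB-436 was lower than MCF10A for 16 of them (69.6%, against 58.5% of all genes above background on all arrays). As deposited, the median was -0.30 and none passed 2-fold. After quantile normalization it was -0.09, and the median of IFN-γ-treated HT-29 minus MDA-MB-436 was -0.53. NDUFA7 had an intensity of 340.3 in IFN-γ-treated HT-29, 667 in MDA-MB-436 and 882 in MCF10A, 2.59-fold lower in IFN-γ-treated HT-29 relative to MCF10A. NDUFA8, an accessory subunit on the intermembrane space side, was at 324 in IFN-γ-treated HT-29, 649 in MDA-MB-436 and 676 in MCF10A. As deposited it was the only member at least 2-fold below both other lines, with log2 differences of -1.002 from MDA-MB-436 and -1.06 from MCF10A. The first of these was under 2-fold after median centring, at -0.92. After quantile normalization NDUFA7 was also 2-fold below both lines, at -1.21 from MDA-MB-436 and -1.35 from MCF10A.

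NDUFA5 was at 135 in IFN-γ-treated HT-29, 206 in MDA-MB-436 and 285 in MCF10A, 2.11-fold lower in IFN-γ-treated HT-29 relative to MCF10A. NDUFA2 was at 951 in IFN-γ-treated HT-29, 1460.1 in MDA-MB-436 and 1921 in MCF10A. NDUFA7, NDUFA5 and NDUFA2 thus shared 1 order of the lines, with MDA-MB-436 in the middle.

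NDUFA9, which lies near the ubiquinone channel, differed from this order. It was at 1014.6 in IFN-γ-treated HT-29, 1872.6 in MDA-MB-436 and 1071.9 in MCF10A, so that MDA-MB-436 stood above both lines. After quantile normalization it passed 2-fold in MDA-MB-436 against MCF10A, at a log2 difference of 1.09. IFN-γ-treated HT-29 was then also more than 2-fold below MDA-MB-436, at -1.19. NDUFA10 varied least of all members above background, with 329 in IFN-γ-treated HT-29, 302 in MDA-MB-436 and 307 in MCF10A. NDUFB4, at 1122 in IFN-γ-treated HT-29, 1235 in MDA-MB-436 and 1221 in MCF10A, was close behind, and its second cluster, at 1005.8, 1024 and 1034 in the same lines, varied as little.

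The assembly factors of complex I were lower in IFN-γ-treated HT-29 relative to MCF10A in 7 of 7 cases, with a median log2 difference of -0.62. Of all genes, 43.4% were lower, and 50.6% of those above background on all arrays, as were 5 of the 7 factors. NDUFAF5, which hydroxylates the core subunit NDUFS7 during assembly, was at 108 in IFN-γ-treated HT-29, 128 in MDA-MB-436 and 296 in MCF10A. It was 2.75-fold lower in IFN-γ-treated HT-29 and 2.32-fold lower in MDA-MB-436 relative to MCF10A. NDUFAF6 was at 28.2 in IFN-γ-treated HT-29, 31.0 in MDA-MB-436 and 58.0 in MCF10A, within the range of olfactory receptor genes on every array. Counted against the background, it was at least 1.94-fold lower in IFN-γ-treated HT-29. NDUFAF2 lay within that range too, at 32.4 in IFN-γ-treated HT-29, 24.9 in MDA-MB-436 and 46.2 in MCF10A. Its second cluster was at 26.8, 16.1 and 44.6 in the same lines. NDUFAF3 was highest in MDA-MB-436, at 596, with 396 in IFN-γ-treated HT-29 and 439 in MCF10A.

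**Figure D3:**
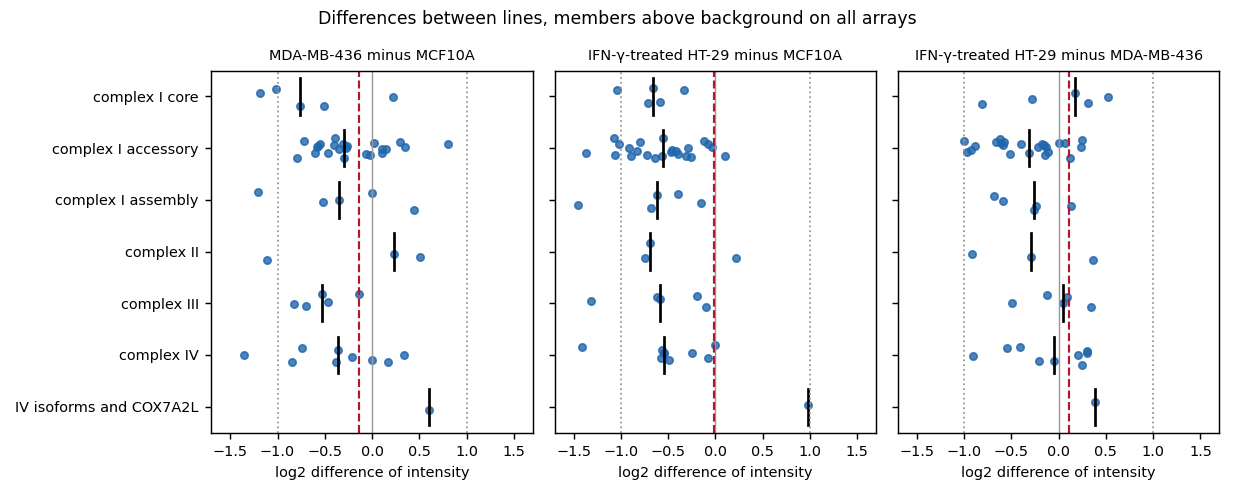
Log2 difference of intensity in the 3 comparisons for the 51 members above background on all arrays, by complex. Each point is a gene, short black lines are group medians, dotted lines mark 2-fold and the red dashed line is the median of all genes above background on all arrays (-0.14, -0.01 and 0.11 from left to right). In the middle panel 48 of 51 points lie below 0.

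Complex II, succinate dehydrogenase, is built of SDHA, which holds the flavin, the iron-sulfur subunit SDHB, and the membrane anchors SDHC and SDHD. SDHB was not analysed here, and the other 3 subunits had different orders of the lines. SDHA was at 1388.5 in IFN-γ-treated HT-29, 1700.3 in MDA-MB-436 and 1197 in MCF10A, the reverse of most members in that MCF10A was lowest. SDHA has near-identical copies in the genome, and its probes can share their signal.

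SDHC was at 1597 in IFN-γ-treated HT-29, 3024 in MDA-MB-436 and 2582 in MCF10A. SDHD was at 929 in IFN-γ-treated HT-29, 724 in MDA-MB-436 and 1562 in MCF10A, and so was 2.16-fold lower in MDA-MB-436 relative to MCF10A, a log2 difference of -0.84 after quantile normalization. Between MDA-MB-436 and MCF10A the log2 differences of the 2 anchor genes were 0.23 for SDHC and -1.11 for SDHD. Between IFN-γ-treated HT-29 and MCF10A they lay close together, at -0.69 and -0.75.

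As deposited, all 5 complex III subunits under the rule were highest in MCF10A, against 36.5% of all genes above background on all arrays. After quantile normalization UQCRC2 was slightly higher in MDA-MB-436, by a log2 difference of 0.11. CYC1, which encodes cytochrome c1 and lies outside the rule by its symbol, was at 951 in IFN-γ-treated HT-29, 1891 in MDA-MB-436 and 1764 in MCF10A, so that MDA-MB-436 was highest. Over the 5 members the median log2 difference from MCF10A was -0.59 for IFN-γ-treated HT-29 and -0.53 for MDA-MB-436. After quantile normalization these medians were -0.59 and -0.25. UQCR11, a small accessory subunit, was at 137 in IFN-γ-treated HT-29, 192 in MDA-MB-436 and 340.3 in MCF10A, 2.49-fold lower in IFN-γ-treated HT-29 relative to MCF10A. UQCRQ, a ubiquinone-binding accessory subunit, was at 719 in IFN-γ-treated HT-29, 677 in MDA-MB-436 and 1101 in MCF10A. Of the core proteins of the complex, UQCRC2 was at 2226 in IFN-γ-treated HT-29, 2162 in MDA-MB-436 and 2385 in MCF10A, a range of 1.10-fold. The other, UQCRC1, was at 529.9 in IFN-γ-treated HT-29, 577 in MDA-MB-436 and 796 in MCF10A, a wider range than the 1.44-fold of the accessory subunit UQCR10.

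The rule held 9 complex IV subunits of the ubiquitous form, all at least slightly lower in IFN-γ-treated HT-29 relative to MCF10A, with a median log2 difference of -0.54. Of all genes above background on all arrays, 50.6% were lower there. In MDA-MB-436, 6 of 9 (66.7%, against 58.5% of all genes above background on all arrays) were lower relative to MCF10A, with a median of -0.36. After quantile normalization that median was -0.09. With COXFA4, which lies outside the rule, 6 of 10 were lower in MDA-MB-436. COX6C had the largest difference between the mammary lines among members above background. It was at 341 in IFN-γ-treated HT-29, 353 in MDA-MB-436 and 906 in MCF10A, 2.66-fold and 2.57-fold below MCF10A, and as deposited only COX6C and NDUFAF5 stood at least 2-fold above both other lines in MCF10A; after quantile normalization NDUFAF6 did too. COX5A, which with COX4I1 joins the complex first, was at 1560.3 in IFN-γ-treated HT-29, 1350.7 in MDA-MB-436 and 1566 in MCF10A.

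COX4I1, the ubiquitous form of subunit 4, was at 426 in IFN-γ-treated HT-29, 567 in MDA-MB-436 and 505 in MCF10A. COX4I2, its lung and hypoxia-linked form, stayed under background, at 10.4 in IFN-γ-treated HT-29, 13.9 in MDA-MB-436 and 17.8 in MCF10A. The muscle forms COX6A2 and COX7A1 and the testis-linked forms COX6B2, COX7B2 and COX8C were also under background on all arrays, between 3.39 for COX8C in MCF10A and 19.9 for COX6B2 in MCF10A. COX6A1, the ubiquitous counterpart of COX6A2, was not analysed here. The ubiquitous counterparts of the others lay well above background. COX6B1 was at 1061.8 in IFN-γ-treated HT-29, 863 in MDA-MB-436 and 1546.5 in MCF10A.

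COX7A2 was at 781 in IFN-γ-treated HT-29, 1466 in MDA-MB-436 and 1161 in MCF10A, with a second cluster at 5.62 or less on every array. COX7B was at 359 in IFN-γ-treated HT-29, 523 in MDA-MB-436 and 522 in MCF10A. COX8A was at 2146 in IFN-γ-treated HT-29, 1744 in MDA-MB-436 and 2271 in MCF10A. In the pairs with both forms measured, those above background were thus the ubiquitous ones in all 3 lines, and the order of the lines differed from gene to gene.

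COX7A2L, which encodes a factor that links complexes III and IV into supercomplexes, was lowest in MCF10A, as SDHA was, unlike the other members above background. It was at 2041 in IFN-γ-treated HT-29, 1569 in MDA-MB-436 and 1031 in MCF10A, a log2 difference from MCF10A of 0.98 for IFN-γ-treated HT-29 and 0.61 for MDA-MB-436. No other member above background was higher in IFN-γ-treated HT-29 than in both other lines, except NDUFA10 by 1.09-fold over the lowest line. COXFA4, formerly NDUFA4 and now counted with complex IV, was at 208 in IFN-γ-treated HT-29, 459 in MDA-MB-436 and 392 in MCF10A, 2.20-fold lower in IFN-γ-treated HT-29 relative to MDA-MB-436. Its relative COXFA4L2 was between 44.6 and 64.2 in the 3 lines, within the range of olfactory receptor genes.

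Other genes of oxidative metabolism gave a mixed picture beside the members. Over the 6 assembly factors of complex III the median log2 difference was -0.69 for MDA-MB-436 minus MCF10A, with 3 at least 2-fold lower and 0 higher. It was -0.58 for IFN-γ-treated HT-29 minus MCF10A, with 2 lower and 0 higher. Of all genes, 8.74% were lower and 8.76% higher in the first comparison, and 10.1% and 10.2% in the second. UQCC3, a complex III assembly factor, was at 204 in IFN-γ-treated HT-29, 105 in MDA-MB-436 and 533 in MCF10A, 5.06-fold lower in MDA-MB-436. LYRM7, the chaperone of the Rieske protein, was at 112 in IFN-γ-treated HT-29, 131 in MDA-MB-436 and 373 in MCF10A. BCS1L, which inserts that protein, was 2.05-fold lower in MDA-MB-436 relative to MCF10A.

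The 13 measured genes of the complex I assembly list, which holds the 7 members, had a median of -0.54 in MDA-MB-436 and -0.62 in IFN-γ-treated HT-29, each minus MCF10A. Its non-member ECSIT was at 105 in IFN-γ-treated HT-29, 76.5 in MDA-MB-436 and 213 in MCF10A. For the 15 complex IV assembly genes the medians were -0.40 and -0.10. By 2-fold or more, 1 gene (6.67%) was lower in MDA-MB-436, 2 (13.3%) in IFN-γ-treated HT-29 and 0 higher in either. These shares were near those of all genes. COX10, which makes the heme precursor of complex IV, was 2.48-fold lower in IFN-γ-treated HT-29 relative to MCF10A, at 259.7 against 645. None of the 3 complex II assembly genes passed 2-fold in any comparison.

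For the 12 measured genes of complex V the median log2 difference from MCF10A was -0.37 in both tumor lines. By 2-fold or more, 1 (8.33%, near the share of all genes) was lower in MDA-MB-436. In IFN-γ-treated HT-29, 4 (33.3%) were lower, against 10.1% of all genes, and 0 were higher in either line. ATP5F1D, a subunit of the rotor stalk, was at 538 in IFN-γ-treated HT-29, 364 in MDA-MB-436 and 1097 in MCF10A. ATP5PO, of the peripheral stalk, was at 387 in IFN-γ-treated HT-29, 816 in MDA-MB-436 and 899.9 in MCF10A. Over 13 genes of cytochrome c, ubiquinone synthesis and electron transfer the medians were -0.50 in MDA-MB-436 and -0.58 in IFN-γ-treated HT-29. At 2-fold, 1 gene (7.69%) was lower in MDA-MB-436, near the 8.74% of all genes. In IFN-γ-treated HT-29, 3 (23.1%) were lower, against 10.1% of all genes, and 0 were higher in either line. PDSS1, which makes the ubiquinone side chain, was at 182 in IFN-γ-treated HT-29, 422 in MDA-MB-436 and 419.5 in MCF10A.

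The citric acid cycle and pyruvate dehydrogenase list held 4 of 15 genes (26.7%) lower by 2-fold or more and 1 (6.67%) higher in MDA-MB-436 relative to MCF10A. Of all genes, 8.74% were lower and 8.76% higher there. In IFN-γ-treated HT-29 relative to MCF10A, 6 (40%) were lower, against 10.1% of all genes, and 1 (6.67%) higher, against 10.2%. The medians were -0.25 and -0.78. The higher gene was the same in both, IDH2, the mitochondrial isocitrate dehydrogenase, at 601 in IFN-γ-treated HT-29, 1014.5 in MDA-MB-436 and 222 in MCF10A. It was 4.56-fold higher in MDA-MB-436. SUCLA2, a succinyl-CoA synthetase subunit, was at 285 in IFN-γ-treated HT-29, 309.8 in MDA-MB-436 and 1105 in MCF10A, 3.88-fold and 3.57-fold below MCF10A.

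Of 9 regulators of mitochondrial biogenesis, 3 (33.3%) were at least 2-fold lower and 1 (11.1%) higher in MDA-MB-436 relative to MCF10A. Of all genes, 8.74% were lower and 8.76% higher there, so the share of higher regulators was near that of all genes. In IFN-γ-treated HT-29 relative to MCF10A, 2 (22.2%) were lower, against 10.1% of all genes, and 0 higher, against 10.2%. The gene higher in MDA-MB-436, the coactivator PPARGC1A, was at 34.4 in MDA-MB-436 and 9.13 in MCF10A. Only a fold of at least 1.15 is thus supported. The coactivator PPARGC1B was at 57.7 in IFN-γ-treated HT-29, 108 in MDA-MB-436 and 151 in MCF10A. MYC was at 1214.6 in IFN-γ-treated HT-29, 687 in MDA-MB-436 and 1629.6 in MCF10A.

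**Figure D4:**
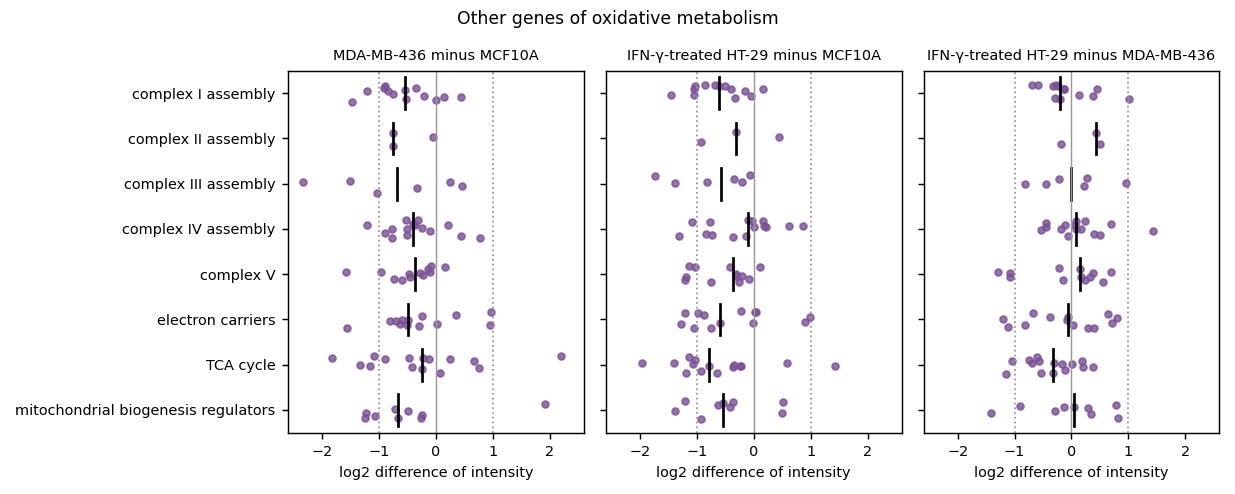
Log2 difference of intensity in the 3 comparisons for genes of other lists of oxidative metabolism. Each point is a gene, short black lines are list medians and dotted lines mark 2-fold; the complex I assembly list includes 7 members. The point furthest right in the citric acid (TCA) cycle row of the left panel is IDH2 at 2.19, and the point furthest left in the complex III assembly row is UQCC3 at -2.34.

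Position was examined by chromosome after the values had been seen. The 6 members of chromosome 19 above background on all arrays, COX6B1, NDUFA11, NDUFA7, NDUFB7, NDUFS7 and UQCR11, were all lower in IFN-γ-treated HT-29 relative to MCF10A, with a median log2 difference of -0.97, against -0.14 over 581 genes of that chromosome. On chromosome 11 the 6 members COX8A, NDUFC2, NDUFS3, NDUFS8, NDUFV1 and SDHD had a median of -0.65 in MDA-MB-436 minus MCF10A, where 513 genes of the chromosome had a median of -0.39. The 6 members of chromosome 19 had a median of -0.66 in that comparison, and the 581 genes of the chromosome one of -0.28. Both chromosome medians lay below the -0.14 of all genes above background in that comparison. Other rows differed. On chromosome 11 in IFN-γ-treated HT-29 minus MCF10A, the members' median was -0.57 and that of the 513 genes -0.03. On chromosome 5 in MDA-MB-436 minus MCF10A, the members' median was -0.15 and that of 383 genes -0.21. The part of chromosome level in the result was not tested.

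Gene neighbours were taken from RefSeq order. Beside NDUFAF5, its nearest measured neighbour ESF1 was at 72.5 in IFN-γ-treated HT-29, 50.8 in MDA-MB-436 and 138 in MCF10A, so the same line was highest, and MACROD2 on the other side was close to background. The neighbours of COX6C, chosen after its values were seen, included POLR2K, at 999.6 in IFN-γ-treated HT-29, 882 in MDA-MB-436 and 1729.9 in MCF10A. VPS13B was at 113, 58.9 and 123 in the same lines. OSR2 ran the other way, at 57.0, 53.4 and 17.1, and RGS22 was under background. Beside NDUFA7, likewise chosen, CD320 was at 98.6 in IFN-γ-treated HT-29, 212 in MDA-MB-436 and 265 in MCF10A, the order of NDUFA7 itself. CERS4 was highest in MDA-MB-436, at 39.7, 140 and 40.9 in the same lines. RPS28 varied by 1.24-fold, and KANK3 was under background. The 2 members with larger differences than NDUFAF5, UQCRBP1 and COX8C, were under background on all arrays, so their neighbours were not described.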

How the data were processed

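Total RNA from 3 lines was measured on exon arrays, 1 array per line, and samples were grouped by the submitters' labels. The authors deposited intensity values on a linear scale for 18708 transcript clusters; the summary method, background correction and normalization are not given in the sources used here, and the submitters' processing notes list hg19. Distributions differed between the columns (95th percentiles of 1214 in IFN-γ-treated HT-29, 966 in MDA-MB-436 and 1197 in MCF10A), so they were not quantile normalized in this form. Symbols came from the platform annotation, updated by gene identifier through RefSeq: 17608 clusters had a symbol, 14733 a single one and 14705 of those matched, which gave 14410 genes. Probes of related genes can pick up each other's transcripts.

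Differences between arrays were taken on log2 of the deposited values. A fold against a value under background is a lower bound. No test was possible with 1 array per line; the counting step was tested on simulated data. Members, lists and thresholds were chosen with earlier results of these data known. Named members were up to 6 per direction and comparison past 2-fold, those 2-fold from both other lines, complex II, the complex IV isoform pairs and the 3 with the smallest range, and per other list up to 3 genes with the largest differences; others were added after their values were seen. The alternatives tried were median centring, quantile normalization, no filter, the 99th percentile of olfactory receptor genes (60.6), a background floor, the median over clusters, structural subunits only and folds of 1.5 and 4. The tools were pandas 2.3.3 and numpy 2.4.6 under Python 3.11.15, with matplotlib 3.10.9 for figures.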

Additional observations from a re-analysis of the deposited data

How the results depend on the processing

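The main limit is 1 array per line: no spread between cultures is known. Quantile normalization moved the median log2 difference of the members to -0.12 for MDA-MB-436 minus MCF10A (-0.35 as deposited) and to -0.33 for IFN-γ-treated HT-29 minus MDA-MB-436 (-0.19 as deposited); for IFN-γ-treated HT-29 minus MCF10A it was -0.58 (-0.56 as deposited), and that median ranged from -0.58 to -0.53 over the alternatives run. Quantile normalization gave 1 member higher by 2-fold or more in MDA-MB-436 relative to MCF10A, NDUFA9, against 0 as deposited, 7 members lower in IFN-γ-treated HT-29 relative to MDA-MB-436 against 1, and 1 member highest in IFN-γ-treated HT-29 against 2. It moved the median of all genes by -0.12 for IFN-γ-treated HT-29 minus MCF10A. Median centring left 0 members lower in IFN-γ-treated HT-29 relative to MDA-MB-436. Without the background filter 3 members were lower in that comparison and 1 was higher in MDA-MB-436 relative to MCF10A, the added ones being under background on all arrays. At 4-fold the count was 0 in every comparison and direction. At 1.5-fold, 2 members were higher and 15 lower in MDA-MB-436 relative to MCF10A, 1 higher and 24 lower in IFN-γ-treated HT-29 relative to MCF10A, and 13 lower in IFN-γ-treated HT-29 relative to MDA-MB-436. No named member counted at 2-fold changed sign under another scaling, the background floor or the median over clusters, but differences of that size could hardly do so. Smaller differences of named members did change sign after quantile normalization. Among them were UQCRC2 in MDA-MB-436 minus MCF10A (-0.14 to 0.11) and COX8A in IFN-γ-treated HT-29 minus MDA-MB-436 (0.30 to -0.03). Of 312 values of named members under those steps, 7 changed whether the member was counted by the rule of 2-fold and background, and 305 did not. Most of the 312 were not counted as deposited and many lay far from 2-fold, so the 305 do not measure stability. Counts lost were NDUFV2, NDUFS8 and SDHD in MDA-MB-436 minus MCF10A after quantile normalization. NDUFA8 in IFN-γ-treated HT-29 minus MDA-MB-436 was lost after median centring. Gained in that comparison after quantile normalization were COX7A2, NDUFA7 and SDHC. NDUFA9, NDUFB3 and NDUFS3, which are outside the 312 values, also passed 2-fold there, at -1.19, -1.07 and -1.11. The cause was not tested. The shares of all genes at 1.5-fold stand beside the comparisons above. No paired analysis was possible because each line had 1 array. Values within the range of olfactory receptor genes, up to 100.8, are limited by signal over background.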
